A study of Sus scrofa with 12 samples.

Results

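The miRNAs described here are miR-1, miR-133 and miR-206, known as striated muscle miRNAs, in the testis of Hezuo (HZ) and Landrace (LC) boars. Small RNA was sequenced from 12 testis libraries, 3 per group: Ha and Hb from HZ boars aged 30 and 120 days, and La and Lb from LC boars aged 30 and 120 days. HZ is a small native pig breed of early sexual maturity, LC is a western breed, and the study asked how testicular miRNAs differ between the breeds and ages. Testes were obtained by castration, the labels name no treatment or engineered allele, and the methods state that RNA was extracted from pooled samples, without the number pooled. The members were all listed miRNAs whose name is miR-1, miR-133 or miR-206, with or without the pig prefix ssc- and with any letter or arm ending, which gave 11 of the 1452 listed miRNAs. Of these, 5 carried the prefix and 6 did not. A count was present in every library for 8 members, while miR-206-y, miR-206-z and miR-133-y had 10, 8 and 7 counts in all 12 libraries together.

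miR-1, miR-133 and miR-206 are often called myomiRs. In skeletal muscle and heart, miR-1 and miR-133 are made from shared precursor transcripts under myogenic factors such as MyoD, Mef2 and serum response factor, and miR-206 is made mainly in skeletal muscle beside miR-133b. miR-1 and miR-206 are known to favour muscle differentiation, and miR-133 is known to favour proliferation of muscle precursors. A miRNA recognises its targets mainly through its seed, bases 2 to 8 from the 5′ end. The testis holds no skeletal muscle in its parenchyma, but it has contractile peritubular myoid cells and vascular smooth muscle, which belong to the smooth muscle type.

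The mature sequences that the results turn on are given as the deposited table lists them, 5′ to 3′ and in DNA letters, with the seed in capitals, so that members that share a seed and members that differ only in length can be told apart.
ssc-miR-1: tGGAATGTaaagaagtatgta
miR-1-y: tGGAATGTaaagaagtatgtaca
miR-1-z: tGGAATGTaaagaagtatgtata
ssc-miR-206: tGGAATGTaaggaagtgtgtga
ssc-miR-133a-3p: tTGGTCCCcttcaaccagctg
miR-133-z: tTGGTCCCcttcaaccagctgtt
ssc-miR-133b: tTTGGTCCccttcaaccagctat
ssc-miR-133a-5p: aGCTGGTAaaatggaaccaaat

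The 11 members carried 4 different seeds, and no other listed miRNA had any of them. The seed GGAATGT was shared by all 6 miR-1 and miR-206 members. Counted from the 5′ end, ssc-miR-206 differed from ssc-miR-1 by A11G, A17G and A21G, all outside the seed, and was longer by 1 base. miR-1-y and miR-1-z were ssc-miR-1 with 2 more bases at the 3′ end, and miR-133-z was ssc-miR-133a-3p with 2 more. The listed ssc-miR-133b began 1 base earlier than ssc-miR-133a-3p, so that its seed was shifted by 1 base. Without that first base, the first 21 bases of ssc-miR-133b and ssc-miR-133a-3p differed only by G21A, and the listed ssc-miR-133b was longer by 1 base at the 3′ end. ssc-miR-133a-5p is the opposite arm of the miR-133a hairpin and has a seed of its own. Bases 2 to 16 of ssc-miR-1, ssc-miR-133a-3p, ssc-miR-206 and ssc-miR-133a-5p were found in 0 of the 332 hairpins that the authors predicted.

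In the RefSeq gene table of Sscrofa11.1, 4 of the 5 genes lay in pairs. MIR1 was at chr17:61894036-61894143 and MIR133A-1 at chr17:61904781-61904883, 10638 bp apart. MIR206 was at chr7:45976293-45976372 and MIR133B at chr7:45980138-45980217, 3766 bp apart. No other gene of that table overlapped these 4. MIR133A-2, which had no such neighbour, was at chr6:106998899-106998971, within the bounds of MIB1, a protein-coding gene, and of the lncRNA gene LOC110261182; whether it is exonic or intronic was not read from the table. A count of ssc-miR-133a-3p cannot be assigned to MIR133A-1 or MIR133A-2.

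The listed counts ranged from 6520197 to 16874633 per library, and the 11 members together took 0.0122% to 0.0972% of them, or 1248 to 11166 counts. Levels are the deposited TPM, the tag count scaled to a common library total, in which 3 counts, the floor used here, were worth 0.158 to 0.404 TPM. Hb replicate 2 stood apart: its scaling factor was 0.694 against 0.910 to 1.20 in the other 11 libraries, and values without it are given where a result rests on it. Replicates were described as biological, but with pooled RNA the p-values measure only the spread between these libraries. In testis tissue, fewer cells of a type and less RNA per cell cannot be told apart. The germ cell list was defined as miR-34b, miR-34c and miR-449, expected in testis with meiotic or haploid cells. Its 4 rows were of miR-34c and miR-449, and none was named miR-34b. They summed to 16.6 to 76.9 TPM at 30 days, 2580 to 13177 TPM in Hb and 11279 to 13895 TPM in Lb.

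ssc-miR-1 was the most abundant member, with 68.1% of all member counts and rank 139 among the 1452 miRNAs by mean TPM. Its level was 149, 186 and 76.3 TPM in Ha replicates 1 to 3 and 386, 347 and 521 TPM in Hb replicates 1 to 3. In LC boars it was 69.1, 97.3 and 136 TPM in La and 485, 479 and 571 TPM in Lb. Every 120-day library was above every 30-day library in both breeds, while the breeds overlapped at each age. The group means were 137 ± 56.0 TPM in Ha against 418 ± 91.3 in Hb, and 101 ± 33.7 in La against 512 ± 51.2 in Lb (SD, n = 3). In order, Lb and Hb stood above Ha and La, and neither Lb and Hb nor Ha and La differed beyond their spread.

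ssc-miR-133a-3p, the abundant arm of miR-133a and 19.0% of member counts, had a different order of groups. It stood at 47.9, 58.8 and 25.3 TPM in Ha and at 72.2, 22.14 and 79.2 TPM in Hb. In La it was 22.3, 28.2 and 41.3 TPM, and in Lb it was 180, 153 and 187 TPM. All Lb libraries lay above all others, and the Hb libraries overlapped Ha and La because Hb replicate 2 held the lowest level of the 12 libraries. The means were 44.0 ± 17.1 TPM in Ha against 57.8 ± 31.1 in Hb, and 30.6 ± 9.69 in La against 173 ± 17.9 in Lb (SD, n = 3).

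ssc-miR-206, the member most restricted to skeletal muscle in general, was the third in abundance, with 6.56% of member counts. Its level was 23.2, 26.5 and 24.5 TPM in Ha and 20.9, 52.7 and 89.1 TPM in Hb. In La it was 13.0, 11.9 and 14.3 TPM and in Lb 22.6, 26.2 and 28.9 TPM. The La libraries were below all others, Ha and Lb overlapped, and the Hb libraries were spread 4.27-fold, with Hb replicate 1 below every Ha library. The means were 24.8 ± 1.64 TPM in Ha against 54.2 ± 34.1 in Hb, and 13.1 ± 1.20 in La against 25.9 ± 3.19 in Lb (SD, n = 3).

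ssc-miR-133b, which is made from the same locus as miR-206, was at 3.60, 5.07 and 2.04 TPM in Ha and 15.4, 10.2 and 30.6 TPM in Hb. In La it was 1.83, 3.89 and 5.75 TPM and in Lb 21.1, 15.5 and 27.8 TPM. The 120-day libraries were above the 30-day libraries in both breeds, and the breeds overlapped at each age, the same layout as for ssc-miR-1. The mean level was 3.57 ± 1.52 TPM in Ha against 18.7 ± 10.6 in Hb, and 3.82 ± 1.96 in La against 21.5 ± 6.14 in Lb (SD, n = 3).

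The remaining 4 members with a count in every library were low. ssc-miR-133a-5p was at 1.01, 1.42 and 0.463 TPM in Ha against 1.75, 1.96 and 3.09 in Hb, and 0.0873, 1.04 and 1.32 in La against 6.29, 3.25 and 4.90 in Lb; La replicate 1 rested on 1 count. miR-1-y stood at 2.13 to 2.54 TPM in Ha against 5.52 to 13.8 in Hb, and 0.785 to 2.84 in La against 11.3 to 14.2 in Lb. miR-1-z stood at 1.02 to 2.44 TPM in Ha against 5.45 to 6.95 in Hb, and 0.948 to 0.960 in La against 5.45 to 9.08 in Lb. For both longer miR-1 forms, the 120-day libraries were above the 30-day libraries of the same breed. miR-133-z was at 0.185 to 1.94 TPM in Ha against 0.218 to 1.89 in Hb, and 0.664 to 1.11 in La against 3.99 to 5.88 in Lb, so that it was high in Lb alone, as ssc-miR-133a-3p was. Its Ha replicate 3 and Hb replicate 2 each rested on 2 counts. miR-206-y had at most 5 counts in a library (Lb replicate 1), miR-206-z at most 3 and miR-133-y at most 2, and no fold is given for them.

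**Figure D1:**
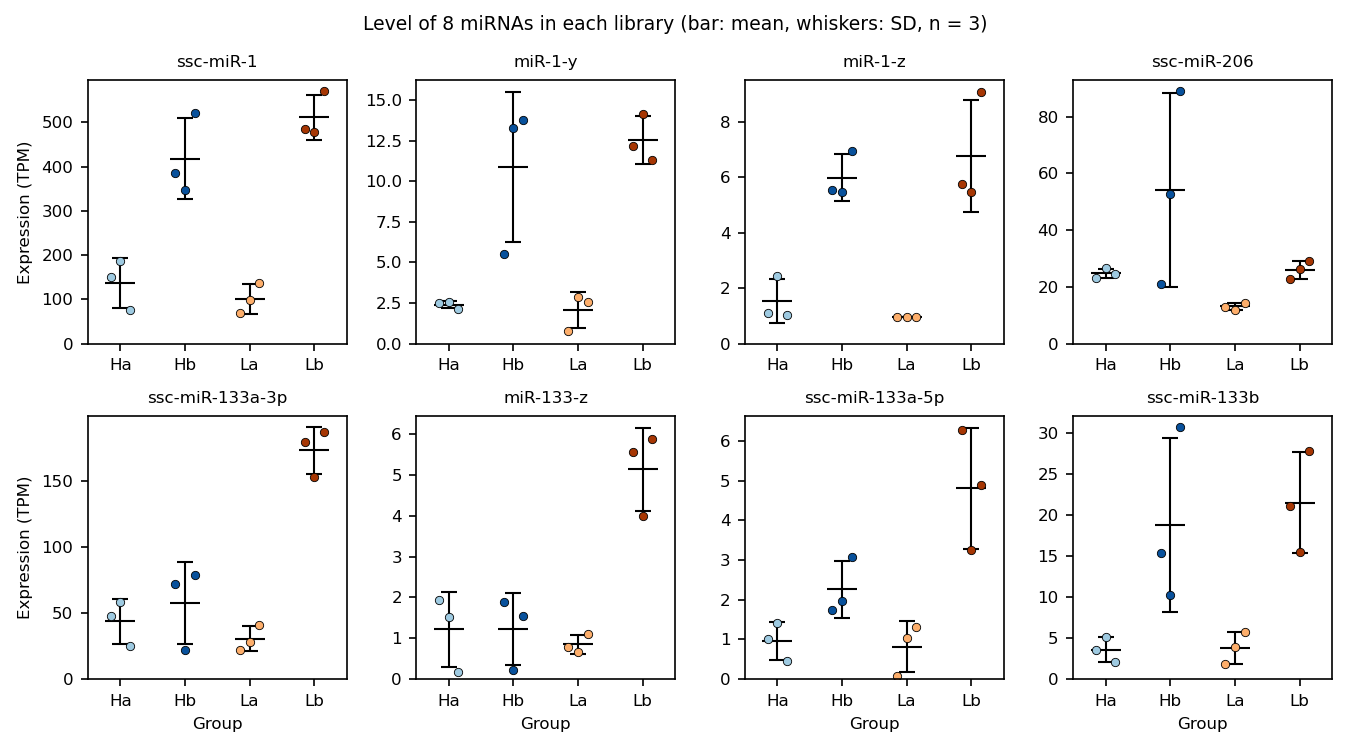
Level in TPM (y axis, linear and from 0, own scale in each panel) of the 8 members with a count in every library, by group (x axis); points are libraries, the bar is the mean and the whiskers the SD (n = 3). ssc-miR-1 and ssc-miR-133b are higher at 120 days in both breeds, ssc-miR-133a-3p and miR-133-z are high in Lb, and ssc-miR-206 is widely spread in Hb.

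In Ha vs. Hb, the age comparison within HZ boars, miR-1 in all its 3 listed forms, miR-133b, miR-206 and miR-133a-5p were higher at 120 days, whereas the difference of miR-133a-3p was within the spread of the libraries. A miRNA was called at a log2 fold change beyond 1 in size and an unadjusted p under 0.05 in edgeR's quasi-likelihood test, and Benjamini-Hochberg adjusted p-values over all tested miRNAs are given beside it. Of the 11 members, 6 were called and all 6 were higher in Hb, beside 25.1% of all tested miRNAs called higher in Hb. With the adjusted p under 0.05, 5 members were called higher, beside 20.3% of all. The median log2 fold change was 1.37 over the 11 members, with miR-206-y, miR-206-z and miR-133-y included, and 0.32 over all tested miRNAs.

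ssc-miR-1 rose 3.34-fold in Ha vs. Hb (log2 fold change 1.74, SE 0.35, edgeR adjusted p = 0.00168). ssc-miR-133b rose 5.62-fold (log2 fold change 2.49, SE 0.46, edgeR adjusted p = 0.00113). The longer forms moved with ssc-miR-1: the log2 fold change was 2.42 for miR-1-y and 2.12 for miR-1-z, with edgeR adjusted p = 0.00177 and 0.00308. ssc-miR-206 was called at a log2 fold change of 1.34 (SE 0.47, edgeR adjusted p = 0.0392), although its groups overlapped. That call was lost without Hb replicate 3, where the value was 0.92 (edgeR adjusted p = 0.150). ssc-miR-133a-5p was called at 1.37 (SE 0.54) with an edgeR adjusted p = 0.0623. Its call was lost without Ha replicate 3 (log2 fold change 1.04), without Hb replicate 3 (1.14), with scaling by library size (1.24) and with scaling by the deposited TPM totals (1.22).

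ssc-miR-133a-3p had a log2 fold change of 0.42 (SE 0.40, edgeR adjusted p = 0.425) in Ha vs. Hb. Without Hb replicate 2 it was 0.72 (edgeR adjusted p = 0.0581), still under the size threshold, and without Hb replicate 3 it was 0.083 (adjusted p = 0.901). miR-133-z was at 0.0029 (SE 0.68), a value whose sign changed with scaling by library size.

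In La vs. Lb, the same age comparison within LC boars, miR-1, both arms of miR-133a and miR-133b were 4.44-fold to 6.20-fold higher at 120 days. Of the 11 members, 7 were called and all 7 were higher in Lb, beside 26.3% of all tested miRNAs called higher. With the adjusted p under 0.05 these 7 members were also called, beside 23.2% of all. The median log2 fold change was 2.28 over the 11 members, with the same low rows included, and 0.32 over all tested miRNAs.

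ssc-miR-1 rose 4.44-fold in La vs. Lb (log2 fold change 2.15, SE 0.22, edgeR adjusted p = 8.7e-06). ssc-miR-133a-3p rose 4.93-fold (log2 fold change 2.30, SE 0.22, edgeR adjusted p = 3.5e-06). The fold was 4.79 for ssc-miR-133b and 4.85 for ssc-miR-133a-5p (edgeR adjusted p = 0.000316 and 0.00463). The longer forms miR-1-y, miR-1-z and miR-133-z rose 5.28-fold, 6.20-fold and 5.10-fold, with edgeR adjusted p-values from 3.5e-05 to 0.000263. ssc-miR-206 had the smallest change of these 8 members, 1.74-fold (log2 fold change 0.80, SE 0.19, edgeR adjusted p = 0.00548). Its groups did not overlap, but the size was under the threshold, which it passed with scaling by library size (1.01).

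**Figure D2:**
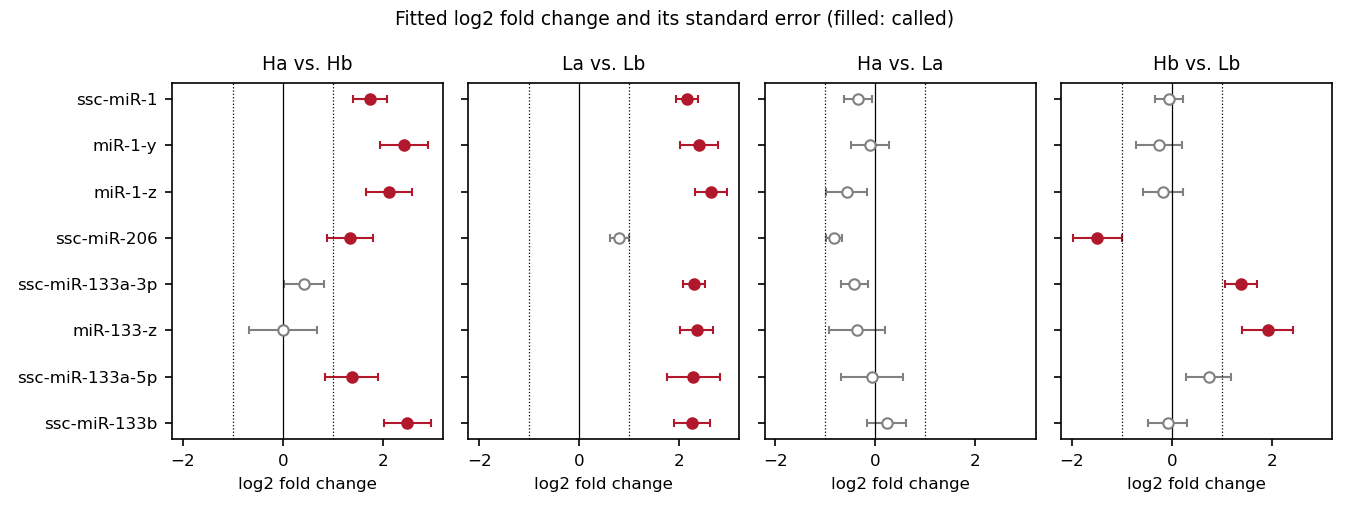
Fitted log2 fold change (x axis; last group against first group) of 8 members (y axis) in the 4 comparisons, with bars of 1 standard error; filled points were called and dotted lines mark the size threshold of 1. In La vs. Lb all but ssc-miR-206 were called, in Ha vs. Hb ssc-miR-133a-3p and miR-133-z sit near 0, and in Ha vs. La no member was called.

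In Ha vs. La, the breed comparison at 30 days, 0 of the 11 members were called, beside 9.47% of all tested miRNAs called in either direction. DESeq2 and edgeR's exact test also called 0 members, but the share of all miRNAs called was not computed for either. At an unadjusted p under 0.05 without the size threshold, 1 member passed, beside 24.7% of all. This was ssc-miR-206, at a log2 fold change of -0.83 in La against Ha (SE 0.16, edgeR adjusted p = 0.00506), with all La libraries below all Ha libraries. The log2 fold change was -0.35 (SE 0.27) for ssc-miR-1, -0.42 (SE 0.27) for ssc-miR-133a-3p and 0.23 (SE 0.39) for ssc-miR-133b, each with overlapping groups. For ssc-miR-1 and ssc-miR-133a-3p the overlap rested on Ha replicate 3, without which the log2 fold change was -0.64 and -0.70, with edgeR adjusted p = 3.6e-06 and 3.5e-05 and still under the size threshold. Over all alternatives the adjusted p ran up to 0.920 for ssc-miR-1 and 0.794 for ssc-miR-133a-3p.

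In Hb vs. Lb, the breed comparison at 120 days, miR-133a-3p and its longer form were higher in LC boars, miR-206 was lower, and neither miR-1 nor miR-133b passed the test. Of the 11 members, 2 were called higher in Lb and 1 lower, beside 8.45% and 8.38% of all tested miRNAs; 1 was called with the adjusted p, beside 3.25% of all in either direction. ssc-miR-133a-3p was 2.62-fold higher in Lb (log2 fold change 1.39, SE 0.32, edgeR adjusted p = 0.0365), and without Hb replicate 2 the log2 fold change was 1.15 (edgeR adjusted p = 0.0305, against 0.000592 to 0.139 over all alternatives). miR-133-z was at 1.92 (SE 0.51, edgeR adjusted p = 0.0622). Its Hb replicate 2 held 2 counts, under the floor, and without that library the value was 1.55 (edgeR adjusted p = 0.0662). ssc-miR-206 was at -1.48 (SE 0.48, edgeR adjusted p = 0.0957), with overlapping groups, since Hb replicate 1 was below every Lb library. Without Hb replicate 3 it was -1.05 (edgeR adjusted p = 0.345) and no longer called. ssc-miR-1 was at -0.05 (SE 0.28) and ssc-miR-133b at -0.08 (SE 0.39), and the sign of both turned positive with scaling by library size (0.30 and 0.21).

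Whether the age change differed between the breeds was tested as an interaction over all 12 libraries, coded as the change in LC boars minus the change in HZ boars. At an adjusted p under 0.05, 0 of the 11 members passed, beside 1.38% of the 1452 miRNAs. At an unadjusted p under 0.05, 2 members passed, beside 21.1% of all, and DESeq2 called 1 member at an adjusted p under 0.05, beside 11.8% of all. These 2 were ssc-miR-133a-3p, at a log2 difference of 1.83 (SE 0.50, edgeR adjusted p = 0.0577), and miR-133-z, at 2.30 (SE 0.84, edgeR adjusted p = 0.128). For ssc-miR-133a-3p the adjusted p ranged from 0.0118 (DESeq2) to 0.147 over the alternatives, and it was 0.0764 without Hb replicate 2. The interaction was 0.36 (SE 0.44) for ssc-miR-1, -0.27 (SE 0.63) for ssc-miR-133b and -0.59 (SE 0.57) for ssc-miR-206. The value of ssc-miR-206 rested on single Hb libraries: it was -1.04 without Hb replicate 1 (edgeR adjusted p = 0.0274, the lowest of its 20 alternatives, of which no other called it) and -0.17 without Hb replicate 3.

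The ratio of 2 members within a library does not depend on how libraries are scaled. Counts of both members were raised by 0.5 before the ratio was taken, and 16 planned ratio comparisons were tested by an exact 2-sided permutation test, which with 3 libraries against 3 cannot go below p = 0.1. The ratio of ssc-miR-1 to ssc-miR-133a-3p was 3.12, 3.17 and 3.01 in Ha, 3.09, 3.44 and 3.30 in La and 2.70, 3.13 and 3.05 in Lb. In Hb it was 5.34, 15.6 and 6.57. The 3 Hb libraries thus lay above the other 9, which held a range of 2.70 to 3.44. The ratio was 2.64-fold higher in Hb than in Ha (exact permutation p = 0.1, the smallest possible; adjusted p = 0.267 over the 16 tests), and in log2 the difference ran from 0.93 to 1.71 when each library was left out in turn.

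miR-133a and miR-133b, whose listed forms differ by G21A and in length at both ends, were also compared, in a ratio chosen after the data were seen. The ratio of ssc-miR-133a-3p to ssc-miR-133b was 13.2, 11.5 and 12.2 in Ha and 4.69, 2.15 and 2.58 in Hb. It was 11.9, 7.19 and 7.16 in La and 8.50, 9.83 and 6.72 in Lb. All Hb libraries were below the other 9. The ratio of ssc-miR-1 to ssc-miR-133b, chosen in the same way, was 36.4 to 41.1 in Ha and 17.0 to 33.7 in Hb, which did not overlap (log2 difference -0.65, exact permutation p = 0.1); the log2 difference was -0.39 without Hb replicate 3 and -0.88 without Hb replicate 2. It was 23.6 to 36.9 in La and 20.5 to 30.8 in Lb, which overlapped.

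miR-206 and miR-133b, which lie beside each other in the genome, were compared by a planned ratio, as were miR-1 and miR-206. The ratio of ssc-miR-133b to ssc-miR-206 was 0.156, 0.193 and 0.0847 in Ha and 0.736, 0.195 and 0.344 in Hb. It was 0.144, 0.328 and 0.402 in La and 0.936, 0.593 and 0.960 in Lb. The groups did not overlap in either age comparison (2.69-fold in HZ and 3.04-fold in LC boars, exact permutation p = 0.1 for both, adjusted p = 0.267), though the highest Ha value, 0.193, and the lowest Hb value, 0.195, nearly met. The ratio of ssc-miR-1 to ssc-miR-206, which share a seed, was 5.30, 8.11 and 9.48 in La and 21.5, 18.2 and 19.7 in Lb, 2.66-fold higher (exact permutation p = 0.1, adjusted p = 0.267). In HZ boars it was 6.42, 7.02 and 3.11 in Ha and 18.4, 6.58 and 5.84 in Hb, which overlap.

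**Figure D3:**
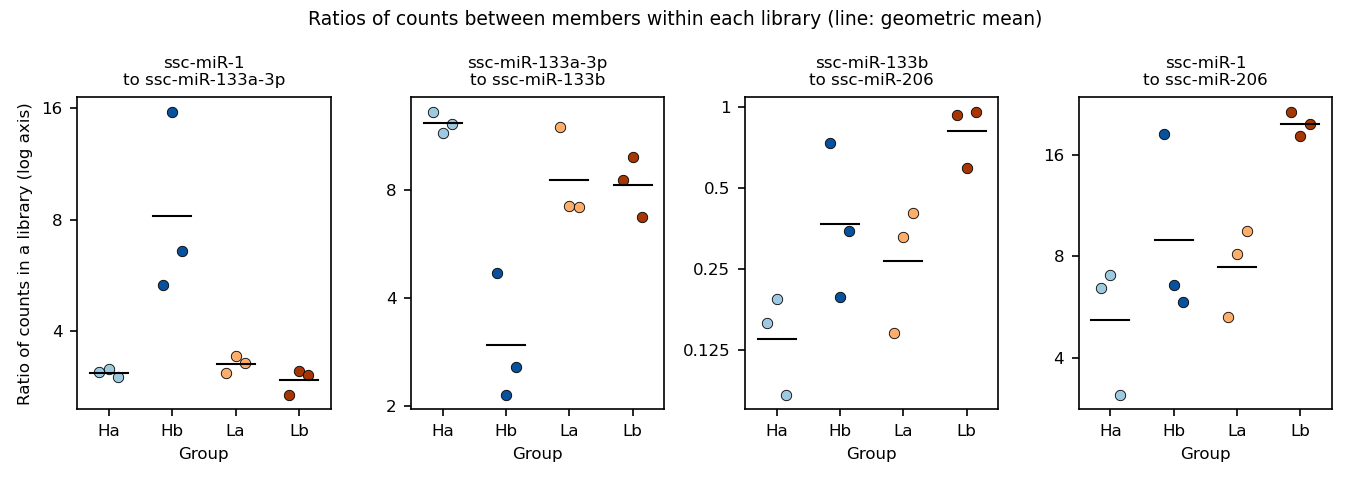
Ratio of counts between members within each library (y axis, log scale, own range in each panel) by group (x axis); points are libraries and the line is the geometric mean (n = 3). The 3 Hb libraries are apart from the other 9 in ssc-miR-1 to ssc-miR-133a-3p (above) and in ssc-miR-133a-3p to ssc-miR-133b (below).

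The arms of miR-133a were counted in strongly unequal amounts. The ratio of ssc-miR-133a-5p to ssc-miR-133a-3p was 0.0201 to 0.0250 in Ha against 0.0252 to 0.0909 in Hb, and 0.00585 to 0.0385 in La against 0.0216 to 0.0352 in Lb. Ha and Hb did not overlap, but the closest values were 0.0250 and 0.0252 (exact permutation p = 0.1, adjusted p = 0.267).

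The listed form with the pig prefix held nearly all counts of its length forms in every group. Among the 3 rows that share their first 15 bases, ssc-miR-1 held 97.0% ± 0.868 of the counts in Ha against 96.1% ± 1.18 in Hb, and 97.1% ± 0.736 in La against 96.4% ± 0.253 in Lb (SD, n = 3). ssc-miR-133a-3p held 97.1% to 98.2% of its 3 rows as group means, and ssc-miR-206 held 99.3% to 99.6%. Reads of such rows could have been split between them in counting, and the rows are not independent measurements.

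Profiles over the 12 libraries were compared as log2(TPM + 1) minus each miRNA's own mean, with the root mean square difference as the measure of likeness. The libraries share depth and scaling, and the likeness is a description. Among the members, ssc-miR-1 was nearest to ssc-miR-133b (0.30), and ssc-miR-133a-3p to miR-133-z (0.37); ssc-miR-1 and ssc-miR-133a-3p differed by 0.69 and ssc-miR-133a-3p and ssc-miR-206 by 1.17. Of 433 others whose mean over the libraries reached 10 TPM, the 3 nearest to ssc-miR-1 were miR-514-z (0.30), a miRNA that the authors predicted (0.35) and miR-508-z (0.35). The 3 nearest to ssc-miR-133a-3p were ssc-miR-143-5p (0.43), ssc-miR-145-5p (0.48) and ssc-miR-345-5p (0.50). The 3 nearest to ssc-miR-206 were miR-26-z (0.41), ssc-miR-145-3p (0.48) and ssc-miR-143-3p (0.49). The median difference over the 433 was 1.23, 1.13 and 1.02 for the 3 members in the same order.

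**Figure D4:**
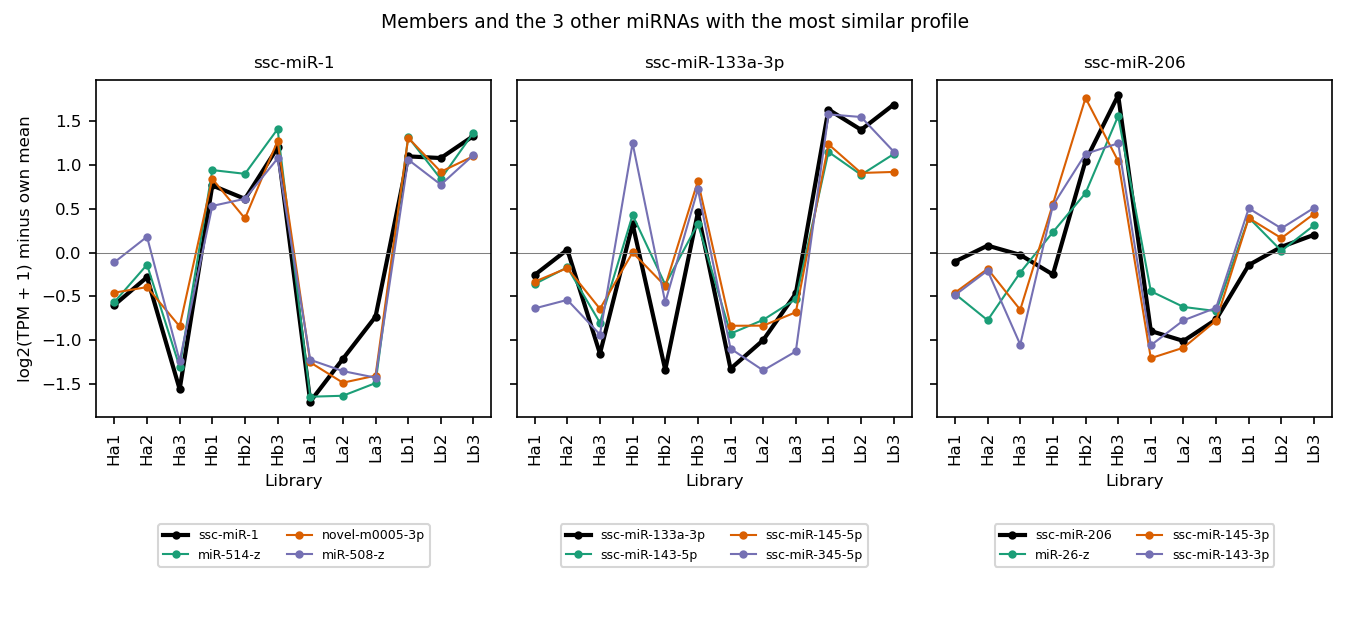
Centred level, log2(TPM + 1) minus the miRNA's own mean over 12 libraries (y axis), by library (x axis); the black line is the member named above the panel and the coloured lines are the 3 other miRNAs nearest to it. ssc-miR-1 and its neighbours are high in Hb and Lb, ssc-miR-133a-3p and its neighbours peak in Lb, and ssc-miR-206 and its neighbours peak in Hb replicates 2 and 3. In Hb replicate 1, ssc-miR-206 is below its level in every Ha and Lb library.

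Other miRNAs known from striated muscle were read beside the members. They were 10 listed rows of miR-208, miR-499 and miR-486, the last of which is also abundant in erythroid cells. In Ha vs. Hb edgeR called 0 of them, beside 25.1% of all tested miRNAs called higher and 14.4% lower. DESeq2 and edgeR's exact test also called 0, and 0 had an unadjusted p under 0.05 in any of these tools. No share of all tested miRNAs was computed for DESeq2 or the exact test, nor for the unadjusted p alone in the age comparisons. In La vs. Lb 1 was called higher, beside 26.3% of all called higher and 5.81% lower: ssc-miR-208b, which had at most 5 counts in a library; DESeq2 called 0 there and gave 1 row an unadjusted p under 0.05, against 2 rows in edgeR. The second was miR-486-x, at a log2 fold change of 0.91 (SE 0.24, edgeR adjusted p = 0.00998), under the size threshold; in Ha vs. Hb it was at -0.76 (SE 0.38). miR-208-y, at 0.184 to 2.71 TPM, was called higher in La than in Ha (log2 fold change 1.68, SE 0.52, edgeR adjusted p = 0.0508) and in Lb than in Hb (1.86, SE 0.65, adjusted p = 0.123). ssc-miR-499-5p, encoded within a slow myosin heavy chain gene, averaged 88.2 ± 15.2 TPM in Ha against 101 ± 71.2 in Hb, and 107 ± 1.35 in La against 115 ± 25.0 in Lb (SD, n = 3). Its log2 fold change with age was 0.18 (SE 0.34) in HZ and -0.08 (SE 0.16) in LC boars. The remaining ssc-miR-486, ssc-miR-499-3p, miR-499-x, miR-499-z, miR-486-y and miR-486-z were not called with age, with log2 fold changes of -0.98 to 0.10 in HZ and -0.12 to 0.48 in LC boars.

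The smooth muscle and pericyte list (miR-143 and miR-145) also held rows that rose with age. Of 9 rows, 5 were called higher at 120 days in HZ boars and 8 in LC boars, beside 25.1% and 26.3% of all tested miRNAs. Their summed level was 22030 to 36347 TPM in Ha against 58183 to 92500 TPM in Hb; the La libraries held 20687 to 26749 TPM and the Lb libraries 55596 to 65214 TPM. Between the breeds at 120 days the sums overlapped, and 2 of the 9 rows were called lower in Lb and 0 higher, beside 8.38% and 8.45% of all tested miRNAs; the median log2 fold change of the list was -0.56. In the list of meiotic and haploid germ cells, 4 of 4 rows were called higher in both age comparisons, beside the same 25.1% and 26.3% of all. Rows called lower with age in HZ boars were 1 of 10 in the erythroid list, 3 of 12 in the leukocyte list, 1 of 8 in the epithelium list and 1 of 5 in the gonadal somatic list, beside 14.4% of all tested miRNAs. In LC boars they were 4 of 10 erythroid rows, 1 of 8 epithelium rows and 0 in the leukocyte and gonadal somatic lists, beside 5.81% of all. The epithelium list also held 1 of 8 rows called higher in HZ and 3 of 8 in LC boars, beside 25.1% and 26.3% of all. In the endothelium list (miR-126), 0 of 4 rows were called in either direction with age, beside the same shares of all. Between the breeds at 120 days, 2 of 8 epithelium rows were called higher in Lb and 1 of 4 endothelium rows lower. In the erythroid, leukocyte, germ cell and gonadal somatic lists 0 rows were called at that age. At 30 days, 3 of 10 erythroid rows were called higher in La, and 2 of 4 germ cell rows and 1 of 9 smooth muscle rows lower. This stood beside 9.47% of all in either direction, and the other lists of this paragraph held 0 called rows. The part of any of these lists in the changes of miR-1, miR-133 and miR-206 was not tested.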

How the data were processed

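The authors made small RNA libraries from testis RNA, filtered reads with fastp, removed other RNA classes, aligned tags to miRBase and predicted further miRNAs with miRDeep2. The deposited table holds raw tag counts and TPM (the tag count scaled to a common library total, with a count of 0 written as 0.01) for each listed miRNA. A second deposited table holds the predicted hairpins with their miRDeep2 score and GC percent, of which only the sequences were searched. TPM was used for levels, and counts for tests, in edgeR 4.0.16 under R 4.3.3 with TMM scaling, 1 fit per comparison and every miRNA with at least 1 count. SE is the log2 fold change divided by the root of its F value. The script was tested on simulated data. Alternatives included DESeq2 1.42.0, other scalings, a filter on low counts and leaving out each library. Named were all members, the rows of the striated muscle list and the 3 nearest profiles per main member, except 1 predicted miRNA given without its name. The members, lists and tests were chosen with earlier results of these data known.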

Additional observations from a re-analysis of the deposited data

How the results depend on the processing

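The number of members called in Hb vs. Lb was 3 and became 6 (3 higher, 3 lower) when rows sharing their first 15 bases were summed, since each row then carried its family's value. The number with an age change that differed between the breeds was 0 and became 1 with DESeq2 and 1 with the filter on low counts (ssc-miR-133a-3p in both), and ranged from 0 to 2 when each library was left out (1 without Ha replicate 3, 2 without Hb replicate 1, ssc-miR-133a-3p and ssc-miR-206). With each library left out, 4 to 6 members were called in Ha vs. Hb, 7 to 8 in La vs. Lb, 0 to 0 in Ha vs. La and 2 to 3 in Hb vs. Lb. For the alternatives, the share of all tested miRNAs called was computed only for the DESeq2 interaction (11.8%). The counts of members therefore do not show whether all miRNAs moved as well. Same-numbered replicates did not deviate together (correlations of -0.145 to 0.136), and the replicate block gave 6, 7, 0 and 3 members called and 0 for the interaction, the counts without it. Scaling by library size moved the median log2 fold change of all miRNAs from 0.06 to 0.32 in Hb vs. Lb and from 0.32 to 0.54 in La vs. Lb. Signs changed only among values that were not called. miR-133-z in Ha vs. Hb was -0.0046 with library size, -0.018 with the deposited TPM totals, -0.026 with DESeq2 and -0.0082 with the exact test. In Hb vs. Lb, under library size, TPM totals and mean TPM in turn, ssc-miR-1 was 0.30, 0.29 and 0.29 (0.0049 with all 12 libraries in 1 fit), ssc-miR-133b 0.21, 0.20 and 0.20, miR-1-y 0.22, 0.21 and 0.21, and miR-1-z 0.19, 0.18 and 0.18. The interaction of ssc-miR-133b was 0.10 and 0.081 under the first 2 of these, and that of miR-1-y 0.44 and 0.41, 0.23 with the replicate block and 0.32 with rows summed. With each library left out, the values that changed sign were, in Ha vs. Hb, miR-133-z from -0.51 to 0.49; in Ha vs. La, miR-133-z from -0.87 to 0.11, ssc-miR-133a-5p from -0.69 to 0.43, ssc-miR-133b from -0.23 to 0.57 and miR-1-y from -0.37 to 0.27; in Hb vs. Lb, ssc-miR-1 from -0.27 to 0.12, ssc-miR-133b from -0.33 to 0.44, miR-1-y from -0.68 to 0.29 and miR-1-z from -0.47 to 0.068; and, for the interaction, ssc-miR-133b from -0.64 to 0.26, miR-1-y from -0.48 to 0.41 and miR-1-z from -0.072 to 0.69. The cause was not tested. Each ratio whose groups did not overlap kept its direction with a pseudocount of 1 and with each library left out. Depth limits miR-206-y, miR-206-z and miR-133-y, with at most 5 counts per library.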
